A study of Homo sapiens with 46 samples.

Results

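The mRNAs of 8 human genes that set the balance between mitochondrial division and fusion were followed in cells in which the synthesis of a single mitochondria-encoded protein had been silenced. The genes, DNM1L, FIS1, MFF, MIEF1, MIEF2, MFN1, MFN2 and OPA1, were chosen by name as the core fission and fusion machinery, out of 58735 genes listed in the count table. All 8 passed the filter on low counts, which kept 20272 genes. HEK293T cells, a line of human embryonic kidney origin, were treated for 48 hours with a chimera at 2 µM, added with the delivery reagent EndoPorter. A chimera is a morpholino, an uncharged antisense oligomer, joined to pCox4, the mitochondrial targeting peptide of yeast Cox4. The 11 treatments targeted the mRNAs of ATP6, ATP8, COX1, COX2, COX3, CYTB, ND1, ND2, ND3, ND4L and ND5. Control cells received pCox4 in click reaction buffer with no morpholino. All groups therefore shared the cell line, the presequence and the time point, and no library came from untreated cells. There were 46 poly(A)-enriched RNA-seq libraries, 4 in each of 10 conditions and 3 each for COX2 and ND2. Replicates 1 and 2 formed batch 1 and replicates 3 and 4 formed batch 2, prepared on different days with different reagent batches, and COX2 and ND2 had 1 library each in batch 1.

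Mitochondria form a network that continually divides and fuses. Division is carried out by DRP1, the cytosolic dynamin-like GTPase encoded by DNM1L, which is recruited to the outer membrane by adaptors and constricts the organelle. Fusion needs a pair of outer membrane GTPases, the mitofusins MFN1 and MFN2, and the inner membrane GTPase OPA1, whose proteolytic processing responds to mitochondrial stress. The mRNA measured here is only 1 level of control, since DRP1 phosphorylation and OPA1 cleavage act on the proteins and leave no trace in RNA counts. The study itself reported lower DRP1 in its mitochondrial proteome after COX1 silencing, and a mitochondrial network that microscopy found unaffected. That value is protein in isolated mitochondria, whereas the mRNA counted here came from whole cells.

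The libraries held 18876395 to 100698084 counts each (median 23413171), the deepest being COX3 replicate 4 and the next holding 28121898. Of the 11 targeted mRNAs, 3 fell (MT-CO1, MT-CO3 and MT-CYB), 3 rose (MT-ND1, MT-ND2 and MT-ND3) and 5 did not pass the test at an adjusted p of 0.05. The markers chosen for the line, KRT8, KRT18, VIM, CDH2 and PAX2, were present in every library. They ran from 4.97 CPM at the lowest for PAX2 to 530 CPM at the highest for KRT8. Of 5 markers of other cell types, PTPRC, PECAM1, ALB and MYH6 lay between 0 and 0.736 CPM and COL1A1 between 20.5 and 31.2 CPM. In such bulk samples, a change in the share of cells and a change in RNA per cell cannot be told apart.

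The coding sequences of the 8 mRNAs fell into 2 kinds of base composition, and the levels of 7 of them, all but MIEF1, varied between libraries along the same line, as described after the treatments. The first 120 coding bases of 5 members are shown in the 5′ to 3′ direction for this reason, with the last base of a codon in capitals where it is G or C. They were read from the GENCODE 29 transcript with the longest complete coding sequence on GRCh38.

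MFN1: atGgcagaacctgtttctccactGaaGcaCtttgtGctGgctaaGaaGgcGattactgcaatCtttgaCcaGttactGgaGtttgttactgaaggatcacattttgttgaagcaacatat

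MFN2: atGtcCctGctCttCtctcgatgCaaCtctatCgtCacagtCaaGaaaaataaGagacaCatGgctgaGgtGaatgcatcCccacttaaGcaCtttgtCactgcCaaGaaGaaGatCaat

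OPA1: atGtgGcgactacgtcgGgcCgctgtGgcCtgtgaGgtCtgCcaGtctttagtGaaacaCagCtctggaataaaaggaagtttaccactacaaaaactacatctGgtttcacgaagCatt

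FIS1: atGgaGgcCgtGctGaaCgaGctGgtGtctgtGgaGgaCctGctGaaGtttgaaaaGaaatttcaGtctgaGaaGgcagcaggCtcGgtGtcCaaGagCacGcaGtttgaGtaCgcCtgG

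MIEF2: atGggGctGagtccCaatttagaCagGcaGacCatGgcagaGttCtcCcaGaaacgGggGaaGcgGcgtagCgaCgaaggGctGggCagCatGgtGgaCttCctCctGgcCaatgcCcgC

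The last base of the codon was G or C in 14 of 40 codons in MFN1 and 15 of 40 in OPA1, against 25 of 40 in MFN2, 31 of 40 in FIS1 and 32 of 40 in MIEF2. Of the members not printed, MFF had 13 of 40 and MIEF1 28 of 40, while DNM1L opened with 30 of 40 and so departed at its start from the composition of its whole coding sequence. The stretch of MFN1 spans chr3:179348852-179351907, that of MFN2 chr1:11989169-11989288, that of OPA1 chr3:193593378-193614810, that of FIS1 chr7:101244065-101245004 on the minus strand and that of MIEF2 chr17:18261136-18262807. All printed bases lie in coding exons, which for MFN1, OPA1, FIS1 and MIEF2 are 2 exons with an intron between them. Over whole coding sequences, G or C in the last codon position made up 34.3% in DNM1L, 33.2% in MFF, 35.3% in MFN1 and 35.9% in OPA1. It made up 78.4% in FIS1, 69.7% in MIEF1, 78.8% in MIEF2 and 70.6% in MFN2. The mitofusins, which are paralogs of 741 and 757 residues, thus lie on opposite sides.

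Among the 8 genes, MFN2 was the most abundant mRNA and MIEF2 the least. Compared per length, as TMM-normalized CPM, counts scaled to the size of the library, per kilobase of the deposited gene length, the control libraries gave 46.5 ± 2.79 for MFN2, 29.6 ± 2.66 for FIS1, 23.7 ± 1.37 for DNM1L and 18.2 ± 0.494 for MIEF1 (SD, n = 4). OPA1 was at 16.1 ± 0.797, MFF at 13.7 ± 0.655, MFN1 at 13.5 ± 0.635 and MIEF2, which encodes the second of a pair of related DRP1 receptors, at 3.95 ± 0.452 CPM per kilobase (SD, n = 4). This order was the same in every library for most neighbours. MFN2 exceeded FIS1, FIS1 exceeded DNM1L, DNM1L exceeded MIEF1 and OPA1 exceeded MFF in all 46 libraries, and MIEF1 exceeded OPA1 in 40. MFF and MFN1 could not be ordered, since MFF was the higher in 21 of 46 libraries.

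No change of any of the 8 mRNAs passed the test after any of the 11 treatments. In edgeR's quasi-likelihood test over 20272 genes, 0 of 88 tests passed an adjusted p of 0.05, with 8 at an unadjusted p under 0.05 and 1 call by DESeq2. The estimates were spread around the control, with 46 above and 42 below. The share of all genes that passed was itself small: 0.00987% for ATP6 and for ND3, 0.0247% for ND2, 0.0543% for COX1, 0.0641% for ATP8 and 0.0888% for ND1. It was 0.148% for ND4L, 0.158% for ND5, 0.306% for COX3, 0.469% for COX2 and 0.548% for CYTB. The absence of calls among 8 genes is therefore near the background and is no result about the members. Their intervals were narrow. Over all 88 tests, the 95% intervals of the fold change lay between 0.831 and 1.26. The median log2 fold change of the 8 members lay between -0.05 (ND4L) and 0.04 (COX3), beside medians over all genes between -0.003 and 0.004.

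**Figure D1:**
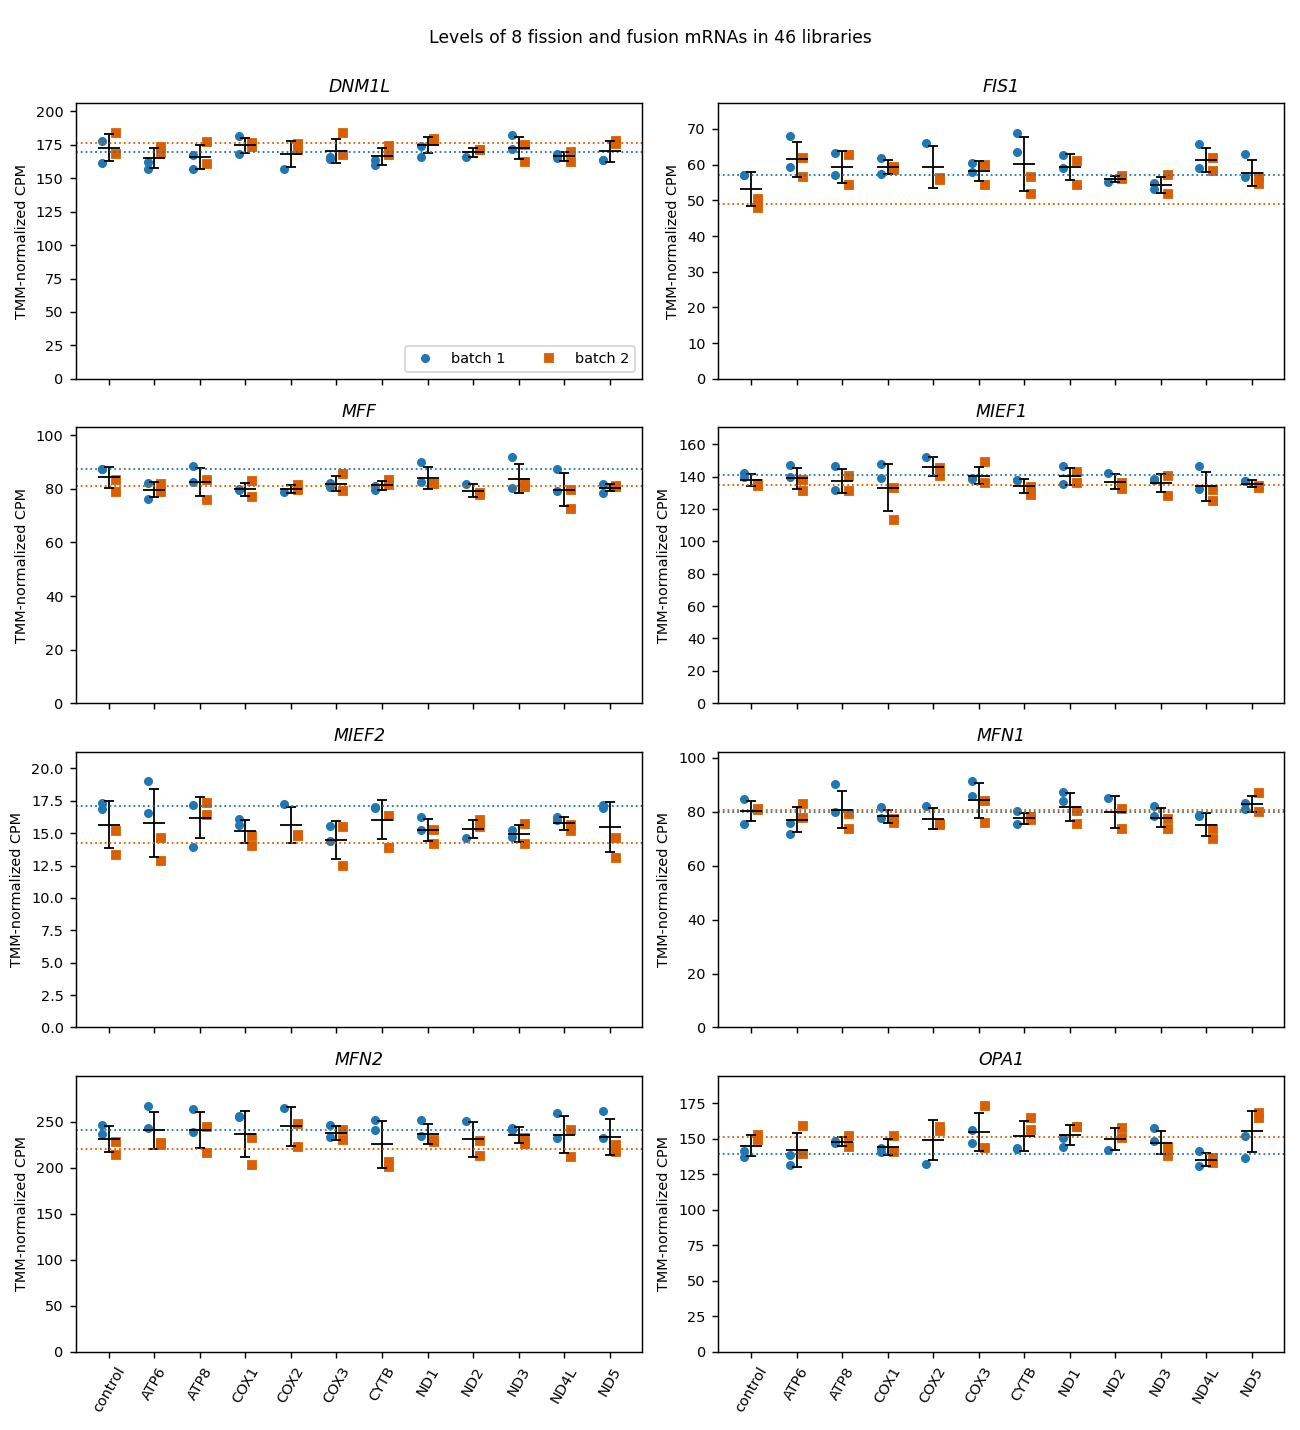
TMM-normalized CPM of the 8 mRNAs in 46 libraries, by condition. Circles are batch 1, squares batch 2, black bars the mean and SD of a condition (n = 4, or 3 for COX2 and ND2), and dotted lines the mean of the control libraries of each batch. All members stay near the control level, and FIS1 is above both controls of its batch in 37 of 42 treated libraries. The share of all genes with as many is not given here.

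DNM1L (ENSG00000087470, chr12:32679200-32745650) encodes DRP1 and was examined after COX1 silencing first. After COX1 silencing its mRNA stood at 168, 182, 173 and 176 CPM in replicates 1 to 4. The control libraries held 162, 178, 168 and 184 CPM, so the groups overlapped in full. The log2 fold change was 0.02 (SE 0.045, adjusted p = 0.964, edgeR), with a 95% interval of the fold from 0.950 to 1.08. Across the other 10 treatments the estimates ran from -0.07 after ATP6 to 0.01 after ND1 silencing, with 9 of 11 below the control. How many of all genes had as many estimates below is not given here. DNM1L was also the steadiest member, with a coefficient of variation of 4.31% over the 46 libraries and a highest level 1.18 times the lowest. DNM1L overlaps genes on the opposite strand, the most abundant of them YARS2, with a mean count of 1540 beside 4258 for DNM1L. The use of strand in counting is not given in the sources used here, so reads of the overlap cannot be assigned to either.

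FIS1 (ENSG00000214253, chr7:101239458-101252316, minus strand), a small tail-anchored protein of the outer membrane that binds DRP1 and its regulators, was the one member that lay on the same side of the control in nearly all libraries. The control libraries held 57.2 and 57.0 CPM in batch 1 and 50.3 and 47.7 CPM in batch 2. Means after treatment were 61.5 ± 4.86 CPM for ATP6, 61.2 ± 3.35 for ND4L, 60.3 ± 7.58 for CYTB (SD, n = 4) and 59.3 ± 5.804 for COX2 (SD, n = 3), down to 54.3 ± 2.23 for ND3 (SD, n = 4). Of the 42 treated libraries, 37 exceeded both control libraries of their batch, and 4 lay below both. All treated libraries of a batch share the same controls, and the share of all genes with such a count is not given here.

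The estimate for FIS1 was above the control in all 11 treatments, from 0.04 (ND3) to 0.21 (ATP6) on the log2 scale, and 11.8% of all genes had all 11 estimates above the control. All 8 member tests at an unadjusted p under 0.05 were FIS1, in ATP6, ATP8, COX1, COX2, COX3, CYTB, ND1 and ND4L. Unadjusted p-values under 0.05 made up 9.79% of all tests, 5.38% being in the higher direction, and 1.14% of genes were higher at that level in at least 8 treatments. After adjustment over all genes the lowest value was 0.110 (ND4L, log2 fold change 0.21, SE 0.062, edgeR), while DESeq2 gave 0.0475 for the same comparison, the lowest of the alternatives (up to 0.998 in others). In the mean of the 11 treatments the log2 fold change of FIS1 was 0.15 (SE 0.047, unadjusted p = 0.00214, adjusted p = 0.134, edgeR, and 0.0591 to 0.938 over the alternatives). By that test 0.261% of all genes passed and 11.9% were under 0.05 unadjusted.

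The 11 comparisons share 4 control libraries, so their common direction is not 11 separate observations. In batch 1 alone the mean difference was 0.09 (SE 0.063, unadjusted p = 0.183) with 9 of 11 treatments above the control. In batch 2 alone it was 0.22 (SE 0.065, unadjusted p = 0.00251) with 11 of 11 above. Without control replicate 4, the lowest FIS1 library of all 46, the number of treatments at an unadjusted p under 0.05 went from 8 to 3. The offset of FIS1 did not pass the threshold over all genes, and its size moved with the control libraries of batch 2.

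**Figure D2:**
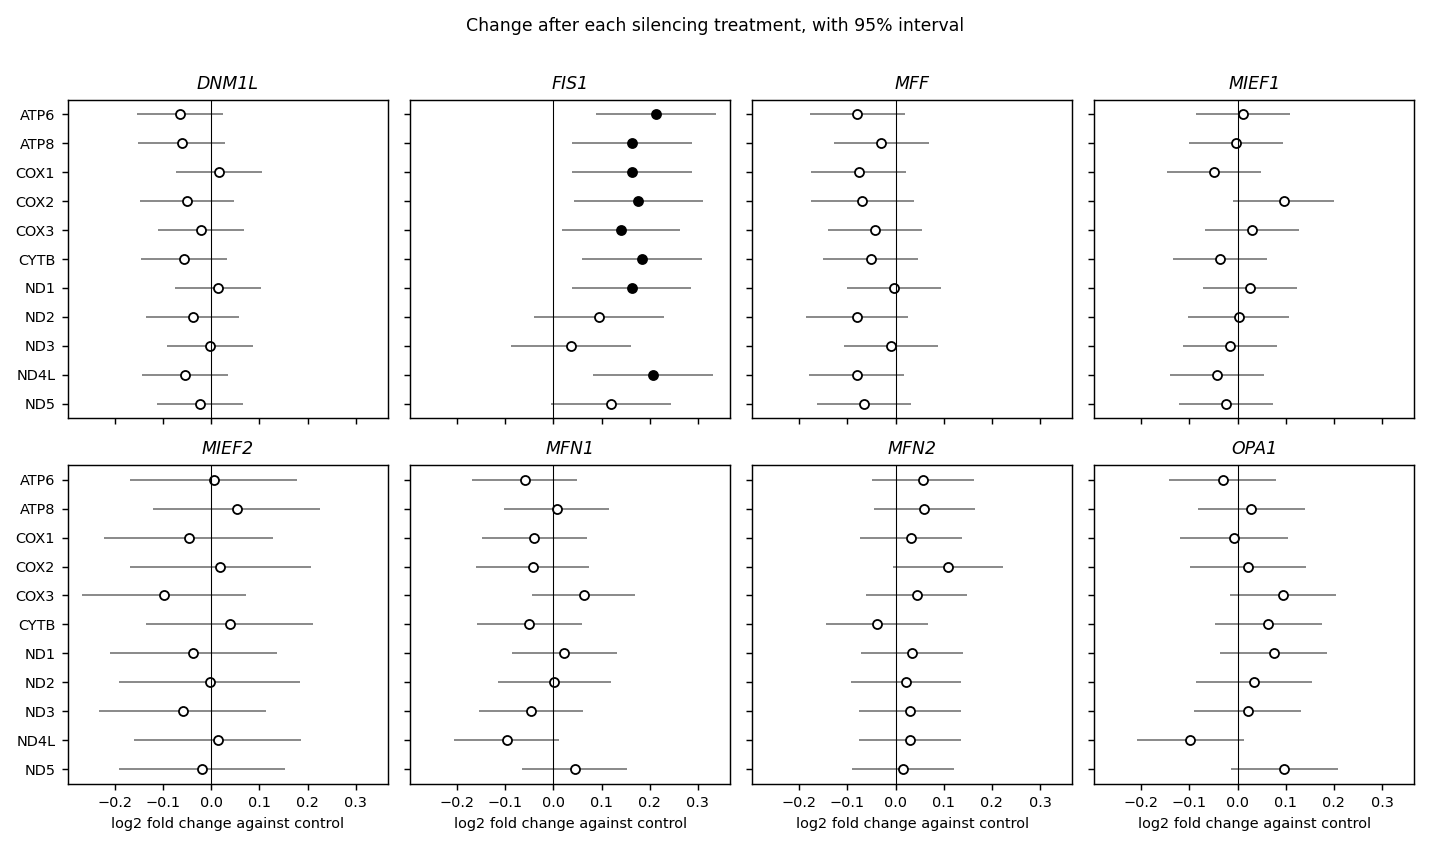
Log2 fold change of each member after each of the 11 treatments against control (edgeR), with 95% intervals as horizontal lines. Filled points have an unadjusted p under 0.05, all of them for FIS1, and no test passed after adjustment. All points lie between -0.10 and 0.21.

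The other DRP1 adaptors had no test at an unadjusted p under 0.05. MFF (ENSG00000168958, chr2:227325151-227357836), a tail-anchored DRP1 receptor of mitochondria and peroxisomes, had estimates below the control in 11 of 11 treatments, from -0.08 after ND4L to -0.003 after ND1 silencing. Its control libraries held 87.3, 87.5, 83.2 and 79.0 CPM, and its treatment means lay between 79.3 ± 2.29 (ND2, SD, n = 3) and 84.1 ± 4.03 CPM (ND1, SD, n = 4). The mean of the 11 treatments was -0.05 (SE 0.036, adjusted p = 0.587, edgeR). The 11 estimates share 4 control libraries, and the share of all genes with all 11 below is not given here. MIEF1 (ENSG00000100335, chr22:39499432-39518132) and MIEF2 (ENSG00000177427, chr17:18260534-18266552), which recruit DRP1 and can hold it inactive, had estimates on both sides of the control, 5 of 11 above for each. The MIEF1 level was lowest after COX1 silencing, where a single library, replicate 4, stood at 113 CPM and the other 3 between 133 and 148. The 4 MIEF1 control libraries lay between 134 and 142 CPM. The highest MIEF1 mean was 146 ± 5.84 CPM after COX2 silencing (SD, n = 3), a log2 fold change of 0.10 (SE 0.0525, adjusted p = 0.430, edgeR). MIEF2 was the least precise member, at 12.46 to 19.01 CPM, with standard errors of 0.085 to 0.094 on the log2 scale.

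The fusion genes overlapped the control as well. MFN1 (ENSG00000171109, chr3:179347692-179394931) ranged from 75.2 ± 4.27 CPM after ND4L silencing to 84.2 ± 6.34 after COX3 silencing, beside 80.3 ± 3.78 in the control (SD, n = 4). MFN2 (ENSG00000116688, chr1:11980181-12013514), which also tethers mitochondria to the endoplasmic reticulum, was above the control in 10 of 11 estimates, the highest being 0.11 after COX2 silencing (SE 0.057, adjusted p = 0.400, edgeR). Its control libraries, at 246, 236, 228 and 213 CPM, spanned all 11 treatment means, which lay between 225 and 245 CPM. How many of all genes had as many estimates above the control is not given here.

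OPA1 (ENSG00000198836, chr3:193593144-193697823) differed most among the treatments. It was at 131, 142, 133 and 137 CPM after ND4L silencing and at 152, 136, 168 and 165 CPM after ND5 silencing, while the control libraries held 137, 142, 150 and 153 CPM. ND4L libraries of batch 2 lay below both controls of that batch and ND5 libraries of batch 2 above both. In the test for differences among the 11 treatments OPA1 had an unadjusted p of 0.0341 (adjusted p = 0.467, edgeR), and 10% of all genes were under 0.05 unadjusted. Against the mean of the other 10 treatments, the ND4L estimate of OPA1 was -0.14 (SE 0.0417, unadjusted p = 0.00168, adjusted p = 0.217, edgeR). After correction of every library for the GC content of its genes it was -0.07 (adjusted p = 0.511, edgeR), and against the control -0.0005 in place of -0.10. In batch 1 alone it was -0.08 and in batch 2 alone -0.19, and over these settings, the gene length trend and DESeq2 the adjusted p ran from 0.0702 to 0.982. None of the 88 member tests of a treatment against the other 10 passed after adjustment, where 0.0991% of all tests did. In the test for any difference between the 12 conditions, 0 of 8 members passed, beside 0.493% of all genes. FIS1 (adjusted p = 0.351, edgeR) and OPA1 (adjusted p = 0.397, edgeR) were under 0.05 unadjusted, as were 12.2% of all genes. After the same correction for GC content, the unadjusted p of OPA1 in this test was lower, 0.006115 in place of 0.04475 (edgeR). That of FIS1 was higher, 0.07011 in place of 0.02958 (edgeR), and neither gene passed after adjustment. The share of all genes under 0.05 after that correction is not given here. Among the 11 treatments, 0 of 8 passed and 0.306% of all genes did.

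The ratio of the mitofusin mRNAs and that of the DRP1 receptors MIEF2 and MIEF1 were compared because each sets paralogs of 1 kind against each other within a library. The MFN2 to MFN1 ratio of counts was 2.88 ± 0.266 in the control and between 2.83 (ND5) and 3.16 (COX2) after treatment. The difference in mean log2 ratio, all treatments against control, was 0.05 (two-sided exact permutation test within batches, p = 0.410, adjusted over the 2 ratios 0.819). The MIEF2 to MIEF1 ratio was 0.114 ± 0.0105 in the control and between 0.103 (COX3) and 0.120 (CYTB) after treatment, a log2 difference of -0.01 (exact permutation test, p = 0.883, adjusted 0.883). The treated and control ranges of both ratios overlapped. MFN2 and MFN1 levels followed the GC slope of the library, described below, in opposite directions (r = 0.38 and -0.64). The ratios were not corrected for that slope.

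Between the batches, in contrast, 7 of 8 members changed, at a background where 57.1% of all genes did. MFN2 fell by 0.15 on the log2 scale from batch 1 to batch 2 (SE 0.022, adjusted p = 1.36e-07, edgeR), MIEF2 by 0.13, FIS1 by 0.10, MIEF1 by 0.07 and MFN1 by 0.07. OPA1 rose by 0.08 and DNM1L by 0.05, and MFF did not pass (-0.04, adjusted p = 0.101, edgeR). These shifts were as large as the estimates of most treatments, and a batch term was part of each test.

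After the batch means were removed, the members still varied together from library to library. DNM1L, MFF, MFN1 and OPA1 were high and low in the same libraries, with Pearson's r of 0.30 to 0.59 for all 6 of their pairs. FIS1, MIEF2 and MFN2 had a negative r with each of them, down to -0.60 for DNM1L with MIEF2. MIEF1 did not, its r with them lying between -0.24 (MFF) and 0.05 (MFN1). Among FIS1, MIEF1, MIEF2 and MFN2, r lay between -0.02 for FIS1 with MIEF1 and 0.71 for MIEF1 with MFN2. Sets formed by base composition each hold fission and fusion genes. The first set had a GC content below 50% over its transcripts (DNM1L 41.8%, MFF 46.3%, MFN1 38.9% and OPA1 39.4%) and the second above it (FIS1 58.8%, MIEF1 55.7%, MIEF2 63.5% and MFN2 53.2%). These correlations are descriptions over 46 libraries that share depth, batch and composition effects.

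The libraries themselves differed in how counts depended on GC content. For each library, the slope of the log2 level on GC content was taken over 10421 genes other than the members. It ran from -0.09 to 0.12 on the log2 scale per 10 points of GC, with a median of -0.04 over the 4 control and 0.002 over the 42 treated libraries. OPA1 levels followed this slope with r = -0.77, DNM1L with -0.72, MFF and MFN1 with -0.64 each, MFN2 with 0.38, FIS1 with 0.61 and MIEF2 with 0.70. MIEF1 had the weakest relation (0.11). The batch 2 libraries of ND4L and ND5 silencing, which differed in OPA1, had slopes of opposite sign. ND4L replicates 3 and 4 had slopes of 0.11 and 0.06, ND5 replicates 3 and 4 had -0.08 and -0.06, and control replicates 3 and 4 had -0.04 and -0.08. Less the batch mean, log2 OPA1 levels were 0.15 and 0.12 in these ND5 libraries and -0.02 and 0.009 in these controls. Whether the slope accounts for the OPA1 difference was not tested. Spearman's rho ran from -0.75 for OPA1 to 0.68 for MIEF2. Without the 2 libraries farthest from the median slope, r was -0.73 for OPA1, -0.68 for DNM1L, -0.55 for MFF, -0.54 for MFN1, 0.28 for MFN2, 0.55 for FIS1 and 0.69 for MIEF2.

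When the GC slope was removed from the levels, 27 of the 28 member pairs lay between r = -0.31 and 0.19, and the pairs among DNM1L, MFF, MFN1 and OPA1 between -0.24 and 0.19. The exception was MIEF1 with MFN2, at r = 0.71 (Spearman's rho 0.67) before and 0.73 after, and 0.66 after with the 2 libraries farthest from the median MIEF1 level left out as well. COX1 replicate 4 held the lowest MIEF1 level (113 CPM) and one of the lowest MFN2 levels (203 CPM), and COX2 replicate 2 was high in both (152 and 265 CPM). In the fit that removed a GC trend from each library, FIS1 was still above the control in 11 of 11 treatments, 9 of them at an unadjusted p under 0.05, with a mean of 0.12 (SE 0.039, adjusted p = 0.128, edgeR). There OPA1 gave 0.06 in the mean of the 11 treatments (SE 0.027, adjusted p = 0.290, edgeR), against 0.03 (SE 0.041) without the removal. MFN1, below the control without the removal (-0.02), was above it with it (0.02), and neither value passed the test.

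**Figure D3:**
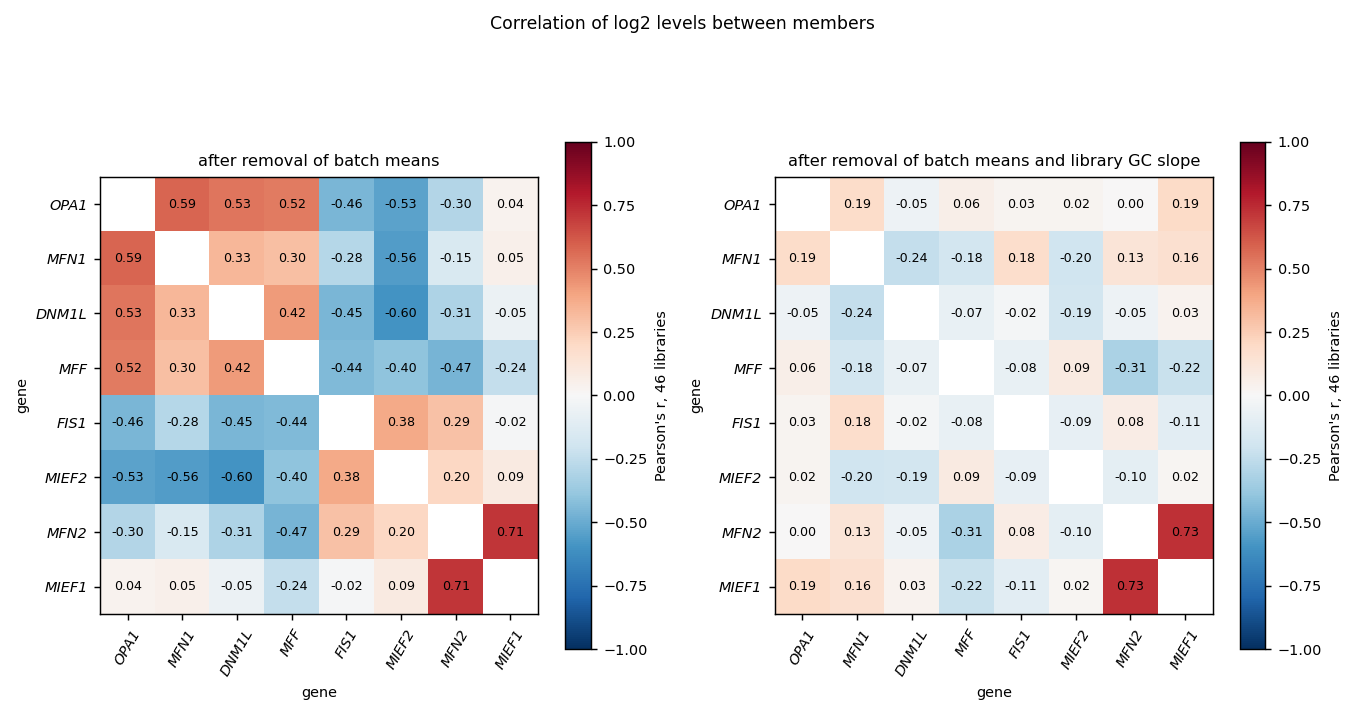
Pearson's r between members over 46 libraries, after removal of batch means (left) and after removal of the library GC slope as well (right). The blocks of OPA1, MFN1, DNM1L and MFF (0.30 to 0.59) and their negative values against MIEF2 and FIS1 shrink on the right, and MIEF1 with MFN2 stays (0.71 and 0.73).

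By likeness of their library-to-library pattern among the 10430 genes averaging 10 CPM or more, the closest genes were KIF11 and SMC3 for DNM1L, EDF1 and GUK1 for FIS1, CALU and ZNF146 for MFF, and KPNB1 and EHD4 for MIEF1. They were LY6E and ATP5F1D for MIEF2, ARHGAP5 and STT3B for MFN1, PKM and VPS18 for MFN2, and UCHL5 and U2SURP for OPA1. Pearson's r of these pairs lay between 0.72 and 0.84 over 46 libraries, with Spearman's rho of 0.63 to 0.84, while the median r of a member with all genes was within 0.025 of 0. No closest gene of a member was another member.

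Because MIEF1 and MFN2 kept their likeness, their promoters were read from the RefSeq table (GRCh38.p14), in which all 8 members had an entry. The pair was picked on these data as the highest r among the members. Genes outside the members were closer to each, such as KPNB1 to MIEF1 (r = 0.78) and PKM to MFN2 (r = 0.84). Of the 250 bases upstream of the MIEF1 start, the last 150 (chr22:39502140-39502289, plus strand), outside annotated exons and inside the annotated gene, are printed with matched motifs in capitals.

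MIEF1: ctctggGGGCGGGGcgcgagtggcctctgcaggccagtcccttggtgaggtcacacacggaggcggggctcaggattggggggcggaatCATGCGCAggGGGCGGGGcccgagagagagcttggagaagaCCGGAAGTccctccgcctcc

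The capitals mark, on either strand, GGGCGGGG (the box of SP factors, 2 matches, found in 21.8% of 35116 upstream windows of 250 bases), TGCGCATG (the core of NRF1, a regulator of nuclear genes for mitochondria, in 1.81%) and CCGGAAGT (the ETS family site bound by GABP, in 3.42%). Searched in the same way, AANATGGC (YY1, in 3.86%), TGACGTCA (the cAMP response element, in 1.65%) and CACGTG (E-box, in 6.34%) had no match in MIEF1. The MFN2 window matched none of the 6. It lies wholly in annotated exons and is not printed. OPA1 held an NRF1 and an SP match, MFN1 an ETS and a YY1 match, FIS1 an ETS and an SP match, and the windows of DNM1L, MFF and MIEF2 held none. The motifs were chosen after the expression results were known, and a match is a run of letters and not a bound site.

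The wider machinery was read from 58 further genes in 6 lists, all of which passed the filter. In 638 tests against control 2 passed, beside 0.171% of the tests over all genes and 0.548% of genes for CYTB. Both were higher after CYTB silencing, and both encode subunits of MICOS, the inner membrane complex that shapes cristae junctions and binds OPA1. C19orf70, now named MICOS13, stood at 77.5, 53.8, 52.1 and 54.7 CPM after CYTB silencing and at 48.1, 45.8, 41.4 and 42.5 CPM in the control. Its log2 fold change was 0.42 (SE 0.092, adjusted p = 0.0191, edgeR). CHCHD6, which encodes a MICOS subunit anchored through MIC60, stood at 26.6, 23.3, 22.1 and 22.4 CPM after CYTB silencing and at 19.5, 17.5, 17.9 and 19.2 CPM in the control (log2 fold change 0.35, SE 0.082, adjusted p = 0.0289, edgeR). In both genes every CYTB library exceeded every control library, as it did in 2.38% of all genes. Both were named for passing the test on these same libraries, so this separation adds no support to the calls. Neither call was made in batch 1 alone, in batch 2 alone, without CYTB replicate 1, without control replicate 3 or without control replicate 4. Without CYTB replicate 1 the estimate of C19orf70 was 0.27 in place of 0.42.

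In the list of 11 MICOS genes and outer membrane partners, 41 of 121 tests were higher and 6 lower at an unadjusted p under 0.05, with a median log2 fold change of 0.09, beside 5.38% of tests higher over all genes. These were 13 and 1 in batch 1 alone, 35 and 6 in batch 2 alone and 46 and 5 with the GC trend removed. The shares over all genes in these settings are not given here, nor is the share of lower tests. The counts by setting are therefore no result about the list. The genes of the list did not move as one. The higher tests came from CHCHD6 (10 of 11), MTX1 (9), MTX2 (7), C19orf70 (6), CHCHD3 (4), SAMM50 (4) and DNAJC11 (1). MINOS1, which encodes the core MICOS subunit MIC10, was lower in 5 tests and APOOL in 1, while IMMT, the gene of the core subunit MIC60, and APOO had none. In the mean of the 11 treatments MINOS1 was at -0.21 (SE 0.102, adjusted p = 0.410, edgeR) and IMMT at -0.01 (SE 0.0334, adjusted p = 0.908, edgeR). The 2 called genes were named because they passed, and the other genes of this list were named after their values were seen. The list is small, its tests share 4 control libraries, and no list-wide test was made. Genes that accompany fusion (6 genes, 12 of 66 tests higher and 3 lower, median 0.06) and those that process or scaffold OPA1 (7 genes, 12 of 77 higher and 1 lower, median 0.03) had no call. In batch 1 alone the latter had 4 higher and 2 lower, with a median of -0.0008. Fission accessory genes (12 genes, 2 of 132 higher and 8 lower, median -0.02), ubiquitin, SUMO and kinase regulators (17 genes, 9 of 187 higher and 7 lower, median 0.001) and movement genes (5 genes, 2 of 55 higher and 1 lower, median -0.03) had none either.

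**Figure D4:**
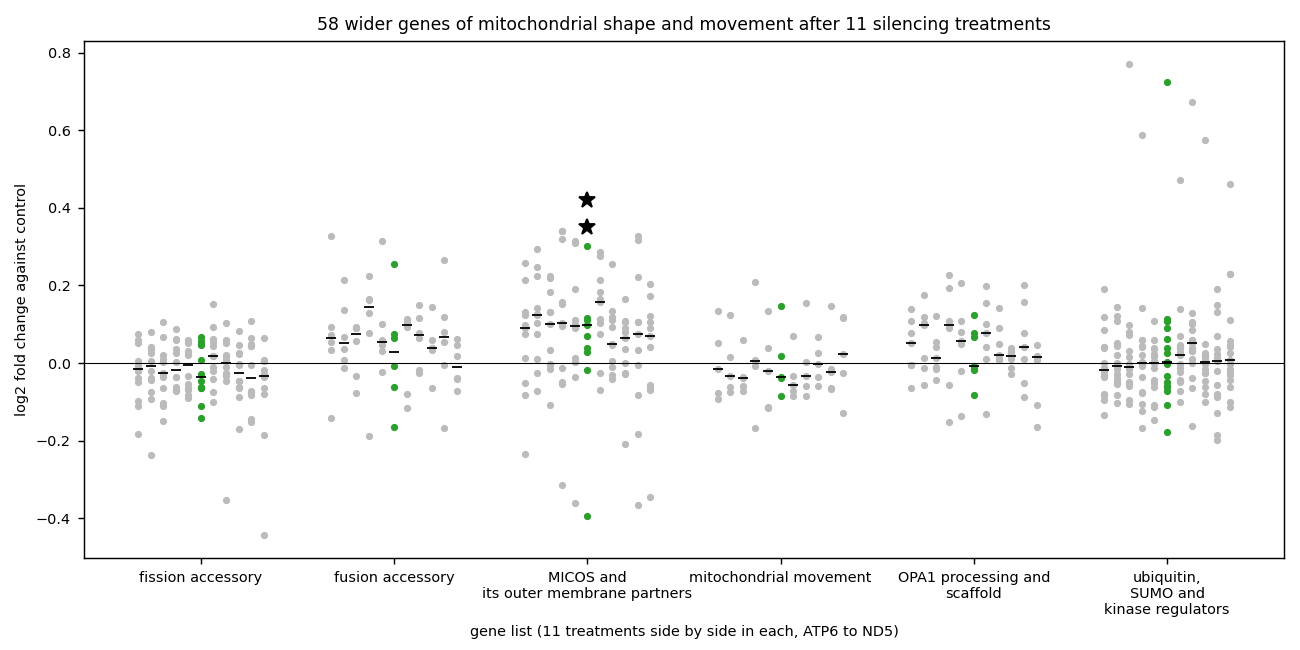
Log2 fold change against control of 58 genes in 6 lists, with the 11 treatments side by side in each list. Dots are genes, the CYTB treatment is green, short bars are the median of a treatment, and stars mark the 2 calls, C19orf70 (0.42) and CHCHD6 (0.35).

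No list had a gene called in the test over all 12 conditions. The lowest unadjusted p in each was that of RAB32 (0.0964), MSTO1 (0.00950), PGAM5 (0.0235), PHB (0.00567), C19orf70 (0.00213) and TRAK2 (0.0676), none under an adjusted p of 0.05 in edgeR. PHB, a prohibitin whose ring in the inner membrane holds long OPA1 forms, had a log2 fold change of 0.14 in the mean of the 11 treatments (SE 0.046, adjusted p = 0.157, edgeR). MSTO1, a cytosolic factor of fusion, had 0.20 (SE 0.0686, adjusted p = 0.190, edgeR).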

How the data were processed

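The authors deposited 1 table of raw read counts per gene for 46 libraries, with gene name, position and length. Per the labels, RNA was poly(A)-enriched and the build was GRCh38.p12. The aligner, the counter and the use of strand are not given in the sources used here, and the labels and the methods differ on single-end or paired-end reads. The study used R 4.3.0, DESeq2 1.40.2 and limma 3.56.2, with a batch correction for replicates prepared on different days.

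From these counts, all conditions and the batch were fitted together in edgeR 4.0.16 (R 4.3.3, limma 3.58.1) with TMM normalization, filterByExpr at a minimum count of 10, the quasi-likelihood F test and Benjamini-Hochberg adjustment over 20272 genes within each comparison. A call is an adjusted p under 0.05. Standard errors of the edgeR fits were derived as the absolute log2 fold change over the square root of F. Intervals are 95%, were built from these standard errors and use 51.9 degrees of freedom. CPM values are TMM-normalized. Ratios were compared with an exact permutation test within batches. Alternatives were DESeq2 1.42.0, other terms, scalings and filters, single batches and each library left out in turn. GC content is the mean over a gene's GENCODE 29 transcripts, and its removal was chosen after seeing the data. Chi-square per degree of freedom between replicates was at least 4.44 over 66 pairs, so no library was a repeat of another of its own condition. Libraries of different conditions were not compared in this way. The study's methods call the replicates biological, and precision rests on 3 or 4 libraries a condition.

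All 8 members were named, and of the wider lists each called gene and the gene with the lowest p over all conditions. For likeness, the 2 genes with the highest Pearson's r were named for each member. The members and lists were chosen with earlier results of these data known.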

Additional observations from a re-analysis of the deposited data

Results flagged for a closer look

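A single library stood apart from the other 3 of its condition in 3 of 80 groups of 4 libraries (8 members in 10 conditions), where chance alone gives about 1 in 20. DNM1L was at 183.7 CPM in COX3 replicate 3, with the other COX3 libraries between 164.4 and 167.6 CPM. MFF was at 90.08 CPM in ND1 replicate 2, with the others between 81.73 and 82.57 CPM, and at 91.9 CPM in ND3 replicate 1, with the others between 80.5 and 82.14 CPM. The gap was 0.834, 0.9 and 0.856 of the range of the condition, above the 95% critical value of Dixon's test for 4 samples.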

How the results depend on the processing

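The count of members called was 0 in the comparisons with the control, with the other 10 treatments, in the mean of the 11 treatments and in both tests over several conditions, under each alternative except DESeq2, which gave 1 call against the control (FIS1 after ND4L silencing, log2 fold change 0.20, adjusted p = 0.0475). With 1 library left out these 5 counts ranged from 0 to 0, and the batch count from 7 to 7. Over the other alternatives the batch count was 6 or 7. The share of all genes called under each alternative is not given here, so these counts are no result about the members. DNM1L after COX1 silencing ranged from -0.02 to 0.03 with 1 library left out and from -0.02 to 0.04 over the other alternatives. The mitofusin log2 ratio ranged from -0.01 to 0.11 and the MIEF2 to MIEF1 ratio from -0.05 to 0.03 with 1 control replicate left out, and none of these passed its test.

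The 2 calls among the wider genes depended on the setting. They were 0 without a batch term, 0 in batch 1 alone, 1 in batch 2 alone (MTX1 after ND4L silencing, 0.54, named after its value was seen), 4 with the GC trend removed, 10 by DESeq2, 13 with only the libraries compared and 18 with no filter on low counts, and 0 to 5 with 1 library left out. The cause was not tested. These counts also stand without the share of all genes called in the same setting, so they are no result about the lists. CHCHD6 also lost its call without CYTB replicate 2 or control replicate 2. Over the alternatives that keep all libraries or a whole batch, the adjusted p ran from 8.16e-08 to 0.275 for C19orf70 and from 0.00519 to 0.508 for CHCHD6.

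With the replicate number as a block there were 5 wider calls, 0 member calls, 0.02 for DNM1L after COX1 silencing (adjusted p = 0.955, edgeR), 0.05 for the mitofusin ratio (exact permutation p = 0.422) and -0.01 for the MIEF2 to MIEF1 ratio (exact permutation p = 0.881). Deviations from the condition and batch means had a mean r of 0.0446 between libraries of the same number (242 pairs, 96 above 0.1) and of -0.1043 between libraries of the same batch with another number (243 pairs, 32 above 0.1). Same-number libraries were thus more alike, though not every pair exceeded 0.1. The main fit holds a batch term and no replicate block, a choice that these values do not settle. With the block, the lowest adjusted p of FIS1 against the control was 0.0825, beside 0.110 in the main fit (edgeR).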
